A study of Homo sapiens with 6 samples.

Results

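The genes described here encode the translation initiation factors, the proteins that bring a ribosome to the start codon of an mRNA. They were taken as every row of the count table whose symbol begins with Eif and a digit from 1 to 6, without the eIF2 kinases (Eif2ak genes), which gave 52 of 22989 genes. The table has 3 libraries with the label LINC00115 KD and 3 with the label WT. All are described as paclitaxel-resistant breast cancer stem-like cells of the human triple-negative line MDA-MB-231, sorted for high aldehyde dehydrogenase activity. The gene symbols, however, are those of mouse genes, as set out below. KD cells carry a short hairpin RNA against the long non-coding RNA LINC00115. WT is the labels' name for the control. The paper uses a control hairpin in other assays and does not say what these control libraries carried. It names the hairpin sh115-2 for this comparison, while the KD columns are named sh115-1 to sh115-3, and no source used here says whether the libraries came from separate cultures. The p-values therefore measure the spread between these libraries, which may be technical.

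Initiation starts when eIF2, loaded with GTP and the initiator tRNA, joins eIF1, eIF1A, eIF5 and eIF3 on the small ribosomal subunit. The eIF4 factors bind the mRNA cap and unwind the leader, the complex scans to the start codon, and eIF5B then joins the large subunit. Cells set the rate mainly by phosphorylation: of eIF2, which blocks its recycling by eIF2B, and of the 4E-BP proteins, which otherwise hold the cap-binding factor eIF4E. None of these protein states was measured in the counts, which give mRNA only.

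The libraries held 36979221 to 38799331 counts, and the initiation factors took 1.36% to 1.42% of them in WT and 1.55% to 1.57% in KD. Gene symbols are those of mouse genes although the samples are labelled human, and no source used here says why. Of the 52 member symbols, 0 equal a human symbol as written, 46 do apart from case, and 6 (Eif1a, Eif2s3x, Eif2s3y, Eif3j1, Eif3j2 and Eif4a3l1) equal none, among them Eif1a with 4370 to 7996 counts a library and Eif2s3x with 4659 to 5345. Whether the reads came from human or from mouse cells was not tested, and the human cell line is given here as the labels name it. LINC00115 is not listed in the table, so the knockdown was not checked and every direction rests on the labels. Of the 8 markers fixed for the labelled cells, Vim, Cd44, Fn1, Axl, Krt8 and Krt18 were abundant. Fn1 fell from a mean of 2648 normalized CPM in WT to 1945 in KD, and Cd44 stood at 911 and 879. Krt8 rose from 472 to 752, Krt18 from 129 to 236, Axl from 731 to 896 and Vim from 3418 to 3736. Snai2 was at or near 0 in both groups. Zeb1 was low, at 0.751 ± 0.147 normalized CPM in WT and 1.32 ± 0.466 in KD (SD, n = 3 each). CPM are counts scaled to a common library total, here the TMM-adjusted one. The summed level of 6 markers that the line lacks was 0.767 to 0.902 normalized CPM in WT, most of it Esr1, and 3.60 to 4.05 in KD. Markers of other tissues moved with the groups. The summed level of 10 lung epithelial markers lay between 1.57 and 1.88 CPM in WT and between 74.1 and 85.2 in KD, with 7 of the 10 at 0 counts in all WT libraries. For 10 kidney tubule markers the sums were 9.37 to 9.80 in WT and 27.9 to 31.5 in KD. Of these, 5 were at 0 counts in all WT libraries, while Cubn made up most of the WT sum (8.28 normalized CPM) and fell to 6.07 in KD. For 10 leukocyte markers the sums were 71.4 to 84.8 and 142 to 157, while the leukocyte genes Ptprc and Cd3e stayed at or near 0. Their part in the results below was not tested, and in bulk RNA fewer cells of a type and less RNA per cell cannot be told apart.

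To ask which initiation factors differed between LINC00115 KD and WT cells, the quasi-likelihood test of edgeR was run on the 13497 genes that passed a filter on low counts, and p-values were adjusted over all of them (Benjamini-Hochberg). Of the 52 members, 49 were tested. The 3 others, Eif2s3y, Eif4e1b and Eif4e3, had too few counts. Eif4e3, a cap-binding relative of eIF4E, had 0 counts in the WT libraries and 4, 2 and 1 in the KD libraries, and Eif4e1b had 1 count in all.

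Small increases prevailed among the initiation factors. At an adjusted p under 0.05, 28 of 49 rose in KD (57.1%, against 36.7% of all genes tested) and 12 fell (24.5%, against 36.7%). Among genes with a mean of at least 1000 counts, as 46 of the 49 members have, 43.1% were higher and 39.8% lower. The members that rose or fell are 81.6% of those tested, against 73.4% of all genes tested and 82.9% of the well-counted genes, so the share that changed is near the background. In 29 members all KD libraries lay above all WT libraries and in 12 all lay below, against 37.8% of genes tested in each direction and 75.6% in both together. The changes were small in size. Only Eif4a3l1 passed an adjusted p under 0.05 together with a fold change over 2, which 20.2% of all genes tested (10.2% higher, 9.98% lower) and 8.94% of the well-counted genes did. In edgeR 0 members fell past both thresholds (0 at an unadjusted p as well, and 0 with DESeq2's Wald test). The median log2 fold change was 0.15 over the members, -0.01 over all genes tested and 0.02 over all genes with a mean of at least 1000 counts. The median absolute change was 0.22 over the members against 0.45 over all genes tested. For the 46 members with a mean of at least 1000 counts the median absolute change was 0.21, against 0.34 for all genes counted as well. The sum of all members rose from between 13372 and 14107 normalized CPM in WT to between 15597 and 15784 in KD, 1.13 times the WT mean.

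**Figure D1:**
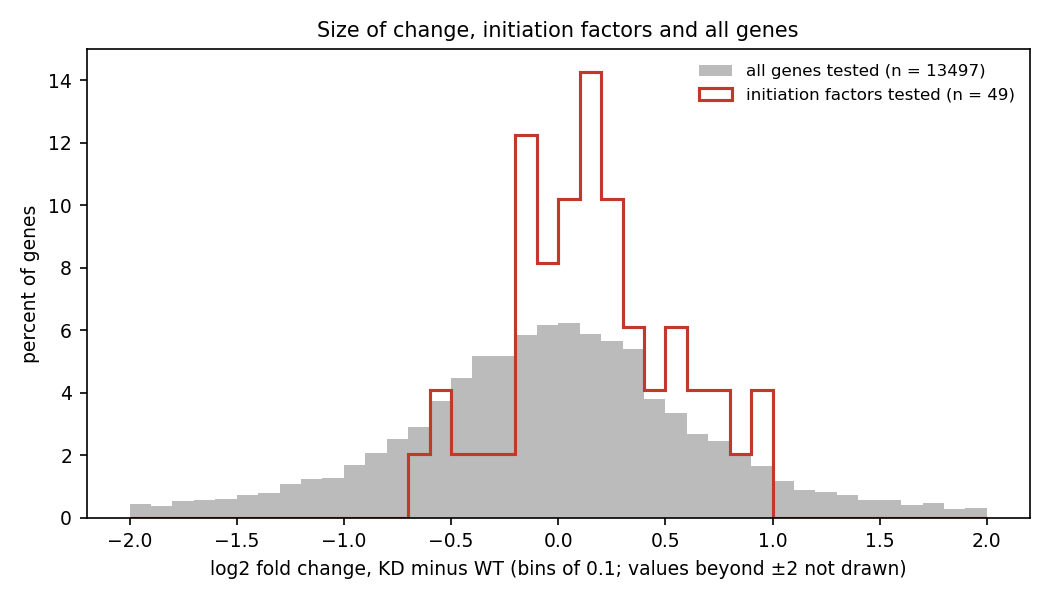
Histogram of log2 fold changes (KD minus WT, x axis, bins of 0.1) as a percent of genes (y axis), for all 13497 genes tested in grey and the 49 initiation factors tested as a red line. Apart from Eif4a3l1, at 3.64 and beyond the drawn range, the factors lie between -0.67 and 0.95, a narrower range than that of all genes.

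**Figure D2:**
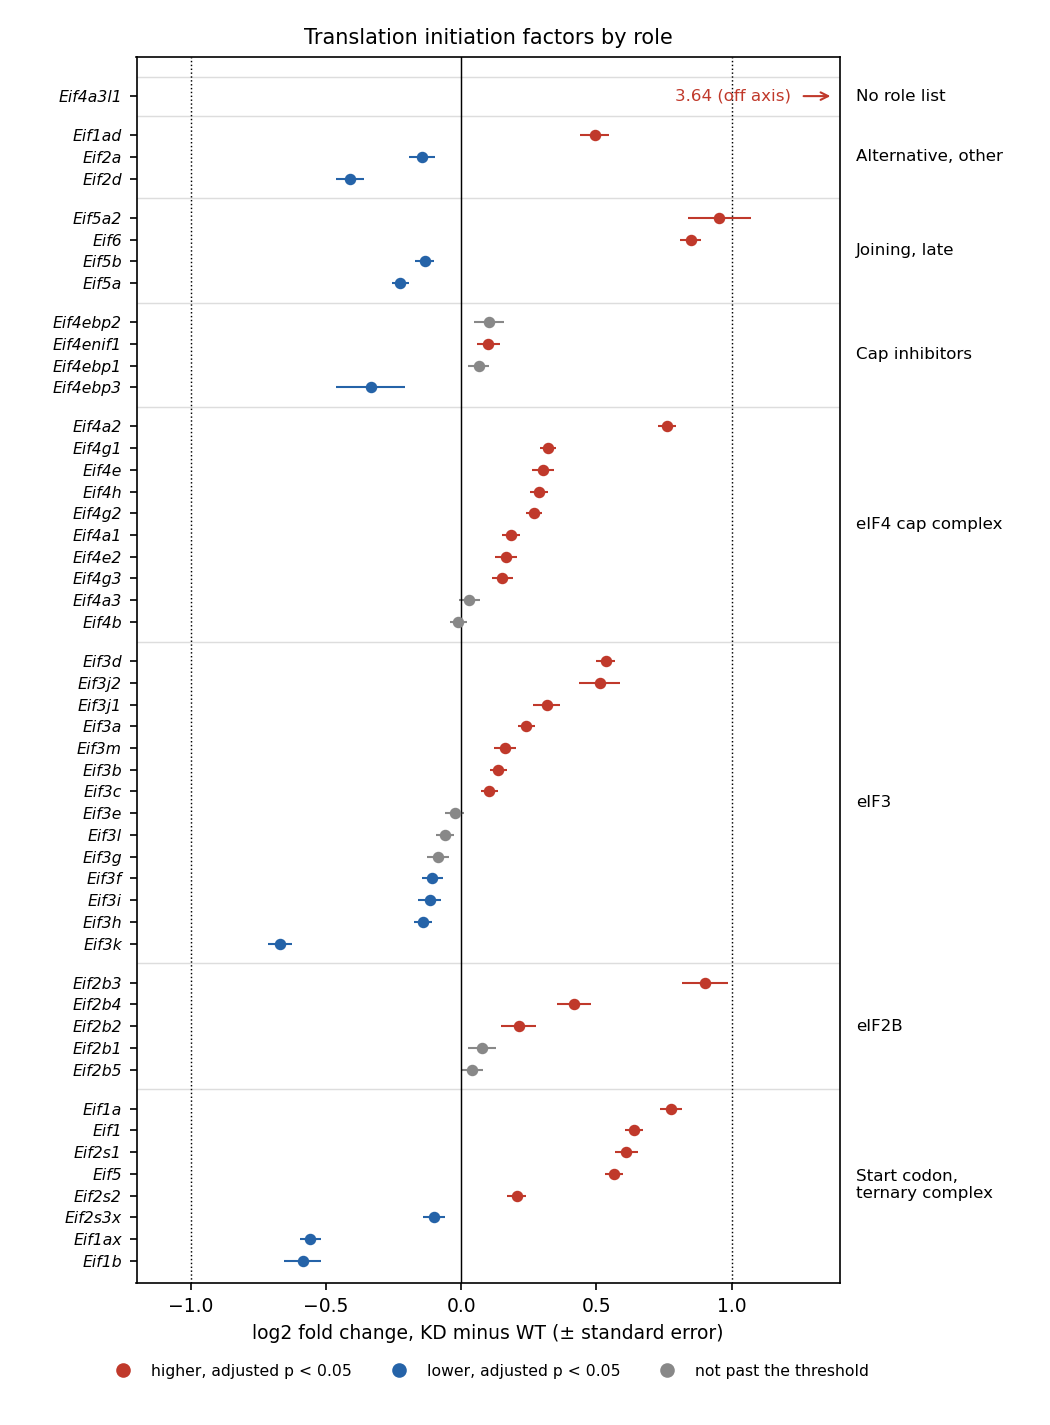
Log2 fold change of each tested initiation factor (x axis, KD minus WT, points with standard errors), grouped by role, with dotted lines at a fold change of 2. Red marks the factors that rose, blue those that fell (adjusted p under 0.05) and grey the 9 others. Eif4a3l1, at 3.64, lies off the axis. The eIF4 cap complex and eIF2B groups hold no factor that fell, while the eIF3 and start codon groups hold factors on both sides of 0.

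The factors that select the start codon and load the initiator tRNA moved in both directions, with 5 of 8 tested higher and 3 lower. Beside this and each count by role below stand 36.7% higher and 36.7% lower over all genes tested. For genes with a mean of at least 1000 counts these shares were 43.1% and 39.8%. Their summed level in KD was 1.29 times that in WT. Eif1, whose protein keeps the scanning complex open until the start codon is found, had 314, 318 and 324 normalized CPM in WT and 490, 501 and 498 in KD. The groups did not overlap, and the log2 fold change was 0.64 (standard error 0.032, adjusted p = 8.12e-19, edgeR). Eif5, the GTPase-activating protein of eIF2, which acts against eIF1 at the start codon, rose nearly as far, from 336, 345 and 352 to 510, 523 and 494 normalized CPM (log2 fold change 0.56). Eif1a, which encodes a form of eIF1A, a factor that promotes scanning, rose from 116, 118 and 128 to 202, 207 and 211 normalized CPM, or by 0.77 on the log2 scale (standard error 0.04, adjusted p = 1.98e-18, edgeR).

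The relatives of these genes went the other way. Eif1ax, the X-linked eIF1A gene, fell from 190, 201 and 202 to 133, 136 and 134 normalized CPM (log2 fold change -0.56, adjusted p = 4.36e-15, edgeR). Eif1b, a close relative of Eif1, fell from 35.0, 35.0 and 37.8 to 24.7, 23.0 and 24.1 (log2 fold change -0.59, adjusted p = 2.60e-09, edgeR). Both were chosen for naming after their values were seen. The log2 ratio of Eif1ax to Eif1a counts moved from 0.71 ± 0.053 in WT to -0.62 ± 0.029 in KD (SD, n = 3 libraries each), so that there were 1.64 Eif1ax counts per Eif1a count in WT and 0.650 in KD. That of Eif1b to Eif1 moved from -3.15 ± 0.045 to -4.37 ± 0.068. Related genes share sequence, and how the counting treated reads that match both is not given in the sources used here, so each of these values carries that uncertainty.

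The subunits of eIF2 did not move together. Eif2s1, which encodes eIF2α with the serine that the stress kinases phosphorylate, had 114, 126 and 124 normalized CPM in WT and 184, 195 and 177 in KD (log2 fold change 0.61, standard error 0.043, adjusted p = 7.91e-15, edgeR). Eif2s2, the β subunit, rose by a log2 fold change of 0.20 (adjusted p = 2.94e-06), and Eif2s3x, the γ subunit that binds GTP and the tRNA, fell by 0.10 on the log2 scale (adjusted p = 0.0276, edgeR). The fall of Eif2s3x was lost without WT replicate 2 (adjusted p = 0.162), without KD replicate 2 (0.0845) and without KD replicate 3 (0.201), and with DESeq2 (0.0641).

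eIF2B exchanges GDP for GTP on eIF2 and is the target of phosphorylated eIF2α. Of its 5 subunit genes 3 rose and 0 fell in edgeR, with 2 not past the threshold (DESeq2 called 0 lower as well). Eif2b3, the γ subunit of the catalytic part, had 15.3, 21.6 and 20.2 normalized CPM in WT and 36.0, 35.7 and 34.9 in KD. WT replicate 1 was the lowest, and the rise of 0.90 on the log2 scale (standard error 0.086, adjusted p = 1.88e-11, edgeR) became 0.77 without that library and 1.00 without WT replicate 2. Eif2b4, the δ subunit, rose from 30.4, 31.2 and 30.3 to 41.9, 39.6 and 41.3 normalized CPM (log2 fold change 0.42), and Eif2b2, the β subunit, from 32.9, 34.8 and 38.4 to 42.0, 41.1 and 39.8 (log2 fold change 0.21, adjusted p = 0.00382, edgeR). The α subunit Eif2b1 and the catalytic ε subunit Eif2b5 had log2 fold changes of 0.08 and 0.04, with 95% intervals of -0.03 to 0.18 and -0.04 to 0.12.

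Around eIF2, the kinases and phosphatase subunits that set its phosphorylation moved both ways, with 3 of 9 genes higher and 5 lower. Eif2ak1, the heme-regulated kinase, rose most (log2 fold change 0.67, adjusted p = 5.11e-12, edgeR), and Eif2ak4, the kinase GCN2 that senses uncharged tRNA, fell most (-0.54, adjusted p = 2.24e-09). Eif2ak2, the double-stranded RNA sensor PKR and an interferon-induced gene, rose by 0.59 and Eif2ak3, the endoplasmic reticulum kinase PERK, fell by 0.43 on the log2 scale. Eif2ak4 and Eif2ak3 were chosen after their values were seen. Of 10 genes for ATF4 and its targets, whose translation or transcription increases when eIF2 is phosphorylated, 8 were higher and 1 lower. The lower one was Ddit3 (log2 fold change -0.17, adjusted p = 0.0311, edgeR). The summed level of the 10 genes was 1510 to 1614 normalized CPM in WT and 2833 to 2900 in KD. Slc7a11 rose most among them, from a mean of 128 normalized CPM in WT to 625 in KD. Ddit3 and Slc7a11 were named after their values were seen. Of 9 interferon response genes in the table, 9 were higher, and of 10 HIF1 target genes 10 were lower. Over all genes tested, 36.7% were higher and 36.7% lower, the background for each list count here and below. Among genes with a mean of at least 1000 counts, as many of the listed genes have, the shares were 43.1% and 39.8%. The lists were chosen with earlier results of these data known.

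The eIF4 group holds the factors that bind the cap and unwind the leader, and relatives that need not act there. Its tested genes rose or stayed where they were. Of 10 genes tested, 8 rose, 0 fell (also 0 with DESeq2's Wald test, and 0 at an unadjusted p) and 2 did not pass. Eif4a2, an RNA helicase, changed most, from 362, 388 and 398 to 646, 656 and 643 normalized CPM, without overlap (log2 fold change 0.76, standard error 0.034, adjusted p = 2.68e-20, edgeR). Its paralog Eif4a1 had 964, 1077 and 1071 normalized CPM in WT and 1155, 1191 and 1189 in KD, a log2 fold change of 0.18 (adjusted p = 1.17e-05). The ratio of Eif4a2 to Eif4a1 counts thus stood at 0.369 in WT and 0.550 in KD, and the log2 ratio rose by 0.58, from -1.44 ± 0.032 to -0.86 ± 0.024 (SD, n = 3 each). All 3 KD ratios exceeded all 3 WT ratios. A two-sided exact permutation test gave p = 0.1, the smallest that 3 against 3 libraries allow, and 0.12 when adjusted over the 6 ratios fixed for this test.

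Eif4g1, the scaffold that joins the cap-binding factor to the helicase and to eIF3, had 1310, 1404 and 1384 normalized CPM in WT and 1679, 1718 and 1716 in KD (log2 fold change 0.32, adjusted p = 9.89e-12, edgeR). Eif4e, the cap-binding factor itself, rose from 179, 190 and 205 to 240, 235 and 233 (log2 fold change 0.30, adjusted p = 3.27e-08). Both differences exceeded the spread between libraries. The helicase cofactor gene Eif4h rose by 0.29, the scaffold relative Eif4g2 by 0.27, Eif4e2 by 0.16 and Eif4g3 by 0.15 on the log2 scale. Eif4b, a cofactor of the helicase, stood at 658 to 690 normalized CPM in all 6 libraries (95% interval of the log2 fold change -0.07 to 0.05), and Eif4a3, which acts in the exon junction complex and not at the cap, had a log2 fold change of 0.03.

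The table also lists Eif4a3l1, a relative of Eif4a3, at 17, 9 and 21 counts in WT and 229, 151 and 214 in KD. It had the largest change of all members, 3.64 on the log2 scale (standard error 0.30, adjusted p = 3.80e-13, edgeR), with means of 0.415 ± 0.162 normalized CPM in WT and 5.22 ± 0.971 in KD (SD, n = 3 libraries). Its counts may hold reads of Eif4a3, which had between 5752 and 5989 counts in every library, and the gene dropped out of the test when at least 10 counts were required in every library.

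The 4E-BP proteins compete with the scaffold for eIF4E. Of the 4 genes of cap-binding inhibitors, 1 rose, 1 fell and 2 did not pass the threshold. Eif4ebp1 had 199, 188 and 198 normalized CPM in WT and 208, 191 and 213 in KD. The groups overlapped, and the log2 fold change of 0.06 (standard error 0.04, 95% interval -0.02 to 0.15) did not pass the threshold (adjusted p = 0.147, edgeR) except without KD replicate 2 (0.12, adjusted p = 0.0128). In Eif4ebp2 every KD library lay above every WT library, with a log2 fold change of 0.10 (95% interval -0.0099 to 0.22) that did not pass the threshold. Eif4ebp3 fell from 9.45, 9.27 and 8.71 to 7.19, 8.06 and 6.50 normalized CPM (log2 fold change -0.33, adjusted p = 0.0196), a call lost without WT replicate 1 (adjusted p = 0.0525) and without KD replicate 3 (0.105). Eif4enif1, the eIF4E transporter 4E-T, rose by only 0.10 on the log2 scale, from 103, 108 and 109 to 111, 119 and 113 normalized CPM (adjusted p = 0.0367). That call was lost under 5 of 13 alternatives, among them without WT replicate 1 (adjusted p = 0.114) and without KD replicate 2 (0.123). Per library, the log2 ratio of Eif4ebp1 to Eif4e counts went from 0.03 ± 0.11 to -0.21 ± 0.084 (SD, n = 3 each), without overlap (exact permutation p = 0.1, adjusted 0.12). That of Eif4ebp2 to Eif4ebp1 overlapped between the groups (exact permutation p = 0.6).

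**Figure D3:**
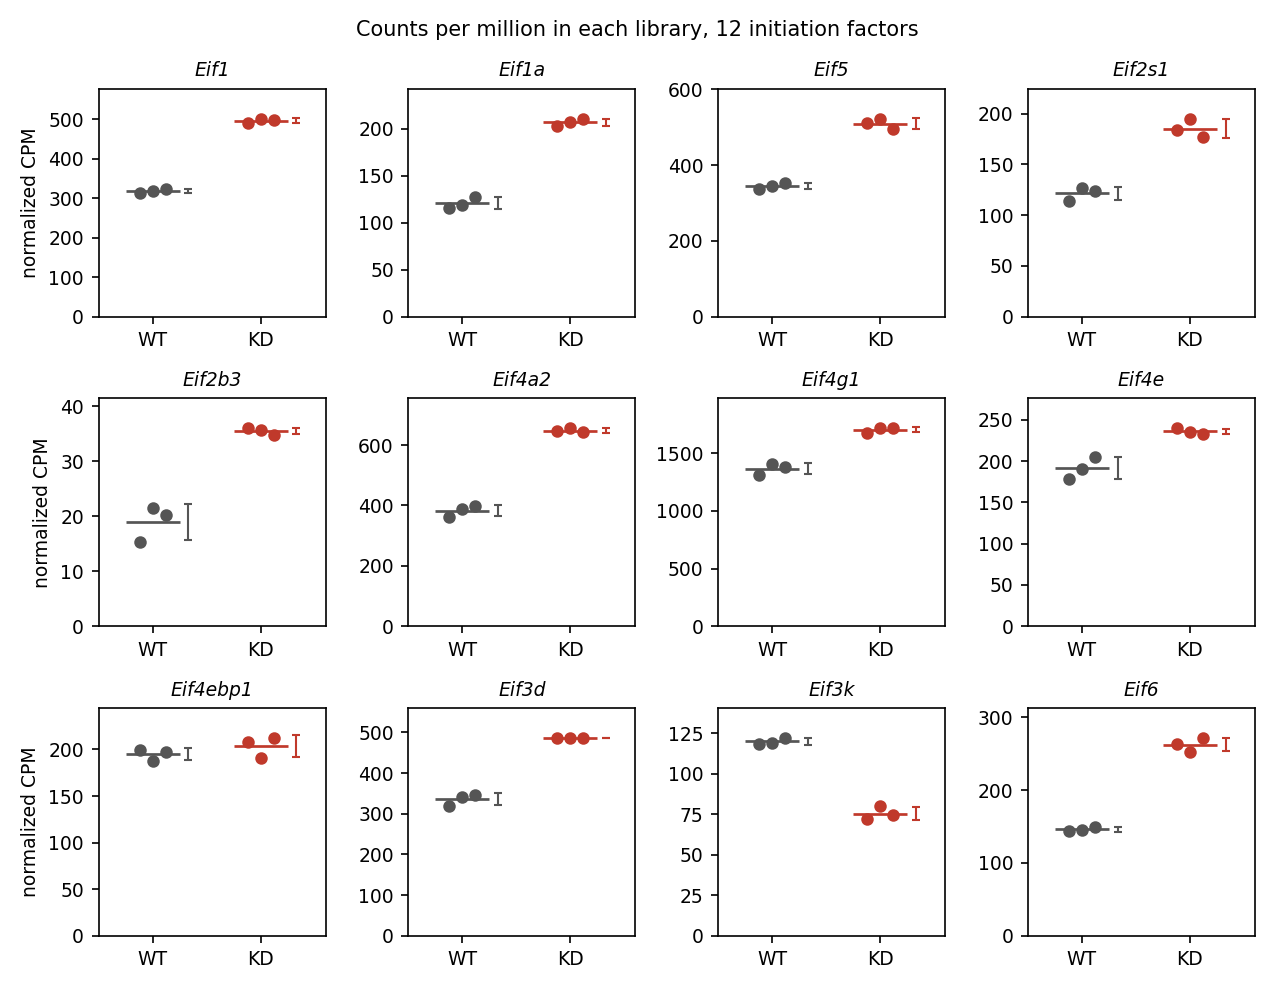
Normalized CPM (y axis, from 0) of 12 initiation factors in each WT (grey) and KD (red) library, with the mean as a line and the SD (n = 3) as a bar beside the points. For Eif4ebp1 the groups overlap, Eif3k is lower in every KD library, and for the 10 other factors every KD point lies above every WT point.

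eIF3 is the large scaffold that binds the small ribosomal subunit and links it to eIF4G. Its 14 genes in the table split, with 7 higher, 4 lower and 3 not past the threshold, a median log2 fold change of 0.04, and a summed level of 4086 to 4292 normalized CPM in WT and 4448 to 4496 in KD. Eif3d, whose protein can itself bind the cap of some mRNAs, rose most, from 319, 341 and 347 to 487, 485 and 487 (log2 fold change 0.53, standard error 0.034, adjusted p = 5.89e-16, edgeR). Eif3j1 and Eif3j2, a pair of close relatives whose reads may not be told apart, rose by 0.32 and 0.51 on the log2 scale, with Eif3j2 at 26.0, 32.8 and 30.8 normalized CPM in WT and 38.7, 45.8 and 43.3 in KD. The subunit genes Eif3a (0.24), Eif3m (0.16), Eif3b (0.14) and Eif3c (0.10) also rose on the log2 scale.

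Eif3k, a small subunit that pairs with Eif3l at the edge of the complex, fell most of all members. It had 119, 119 and 122 normalized CPM in WT and 72.0, 80.1 and 74.4 in KD, which is -0.67 on the log2 scale (standard error 0.046, adjusted p = 3.74e-15, edgeR). Its partner Eif3l had a log2 fold change of -0.06 (95% interval -0.13 to 0.01), so that the log2 ratio of Eif3k to Eif3l counts went from -2.29 ± 0.052 to -2.90 ± 0.067 (SD, n = 3 each), a pair chosen after its values were seen. Eif3h, Eif3i and Eif3f fell by 0.14, 0.12 and 0.11 on the log2 scale, and Eif3g and Eif3e had log2 fold changes of -0.09 and -0.02. With changes this small the calls rested on single libraries in places: Eif3i missed the threshold without KD replicate 1 (adjusted p = 0.0702) or 3 (0.0517) and Eif3f without KD replicate 2 (0.0991), while without WT replicate 1 Eif3g (0.00545) and Eif3l (0.00191) passed it.

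The factors of subunit joining and after gave 2 rises and 2 falls. Eif6, which keeps the large ribosomal subunit from joining too early and takes part in its making, had 144, 145 and 149 normalized CPM in WT and 263, 253 and 272 in KD. This was among the largest changes of the members (log2 fold change 0.85, standard error 0.037, adjusted p = 1.99e-20, edgeR), with every KD library far above every WT library. Eif5b, the GTPase that joins the subunits, fell by 0.13 on the log2 scale (adjusted p = 0.000807). Eif5a, the factor with the hypusine residue that also assists elongation, fell from 1202, 1302 and 1314 to 1097, 1092 and 1079 normalized CPM (log2 fold change -0.22, adjusted p = 1.04e-07). Its rarer isoform gene Eif5a2 rose from 6.37, 7.71 and 6.80 to 13.4, 12.9 and 14.1 (log2 fold change 0.95, adjusted p = 4.47e-09, and 1.04 without WT replicate 2). The log2 ratio of Eif5a2 to Eif5a counts rose by 1.18, from -7.52 ± 0.10 to -6.33 ± 0.071 (SD, n = 3 each, exact permutation p = 0.1, adjusted 0.12). Both hypusine enzyme genes rose, Dohh by 0.60 and Dhps by 0.53 on the log2 scale.

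Of the other factors named Eif, Eif2d, which can bring a tRNA to the ribosome without GTP, fell from 71.2, 68.1 and 68.1 to 53.9, 52.8 and 49.2 normalized CPM (log2 fold change -0.41, adjusted p = 1.36e-08, edgeR). Eif2a, a separate factor of alternative initiation that is not a subunit of eIF2, fell from 75.9, 79.4 and 81.7 to 70.9, 71.4 and 71.9 (log2 fold change -0.15, adjusted p = 0.00652). Eif1ad, whose product resembles eIF1A and works in ribosome maturation, rose from 42.5, 42.2 and 41.8 to 59.2, 60.8 and 58.2 (log2 fold change 0.49, adjusted p = 5.26e-10).

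**Figure D4:**
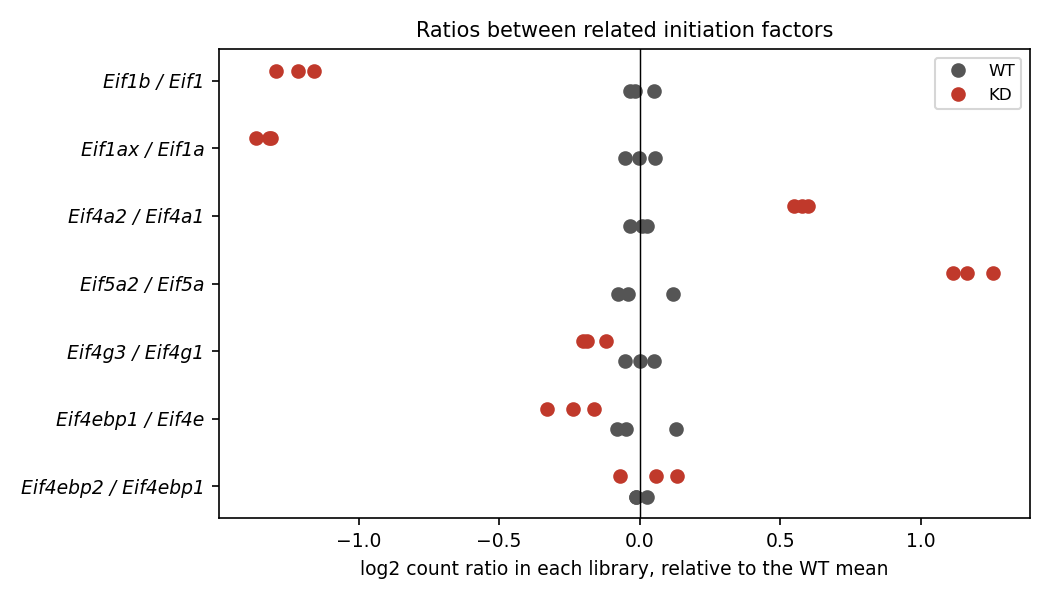
Log2 ratio of counts between related initiation factors in each library (x axis, relative to the WT mean), with WT libraries in grey and KD libraries in red, for Eif1b to Eif1, Eif1ax to Eif1a, Eif4a2 to Eif4a1, Eif5a2 to Eif5a, Eif4g3 to Eif4g1, Eif4ebp1 to Eif4e and Eif4ebp2 to Eif4ebp1. Of these 7 pairs, only in Eif4ebp2 to Eif4ebp1 do the KD points overlap the WT points, and the shift of -1.33 in Eif1ax to Eif1a is the largest drawn. Pairs with Eif4e3 or Eif4a3l1, which rest on few counts, and Eif3j2 to Eif3j1 and Eif3k to Eif3l are not drawn.

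As RefSeq promoters were at hand for human genes only, members were matched to them by symbol apart from case. Of the 46 members with a human symbol, 39 had a promoter in the set used, 37 of them tested. The 250 bases before the start were searched for these. These human sequences stand beside counts listed under mouse-style symbols, and the build of the promoter table is GRCh38.p14. On either strand, ACGTG or GCGTG, the core letters that HIF1 binds, stood in 25 of the 37, against 43.1% of all 27305 promoters. They stood in 13 of the 22 members that rose and 8 of the 10 that fell. CACGTG, the E-box bound by factors such as MYC, which holds ACGTG on both strands, stood in 11 of the 37, against 6.49% of all promoters, and in 5 of the 22 that rose and 4 of the 10 that fell. TGATGNAA, part of the element that ATF4 binds, stood in 0 of the 37, against 3.19% of all. No adjustment was made for base composition, and a match is letters only. The windows of Eif6 and Eif4a2, which rose, and of Eif3k and Eif1b, which fell, are printed 5′ to 3′ as examples that do not stand for either set, with every match in capitals.
EIF6 (chr20:35284718-35284967, minus strand): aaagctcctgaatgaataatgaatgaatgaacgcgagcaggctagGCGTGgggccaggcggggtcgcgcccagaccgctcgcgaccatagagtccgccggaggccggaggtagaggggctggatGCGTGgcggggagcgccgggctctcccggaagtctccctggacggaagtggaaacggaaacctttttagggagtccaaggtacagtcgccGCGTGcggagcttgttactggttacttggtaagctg
EIF4A2 (chr3:186783327-186783576, plus strand): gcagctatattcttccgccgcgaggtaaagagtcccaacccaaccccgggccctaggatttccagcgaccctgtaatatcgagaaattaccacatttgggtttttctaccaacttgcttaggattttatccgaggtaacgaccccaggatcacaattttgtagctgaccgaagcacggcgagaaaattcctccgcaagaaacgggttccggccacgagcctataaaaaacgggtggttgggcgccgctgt
EIF3K (chr19:38618938-38619187, plus strand): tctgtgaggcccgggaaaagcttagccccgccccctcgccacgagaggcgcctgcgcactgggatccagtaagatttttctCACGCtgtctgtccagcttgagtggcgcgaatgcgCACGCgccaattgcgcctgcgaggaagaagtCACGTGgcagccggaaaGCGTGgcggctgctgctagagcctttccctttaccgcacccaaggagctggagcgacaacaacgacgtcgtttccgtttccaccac
EIF1B (chr3:40309457-40309706, plus strand): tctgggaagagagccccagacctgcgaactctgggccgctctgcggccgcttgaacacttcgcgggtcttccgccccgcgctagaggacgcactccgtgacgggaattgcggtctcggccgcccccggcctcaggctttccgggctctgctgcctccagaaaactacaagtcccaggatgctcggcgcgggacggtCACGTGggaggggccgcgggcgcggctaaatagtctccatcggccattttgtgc
The EIF3K and EIF1B windows each hold 1 CACGTG, the EIF6 window holds 3 GCGTG on the printed strand, and the EIF4A2 window holds none of the searched letters.

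Signals that reach the cap complex were read from a list of 15 genes of the mTORC1 and MNK kinases and their regulators, of which 6 were higher and 8 lower. mTORC1 is the kinase that releases eIF4E from the 4E-BP proteins. Ddit4, the mTORC1 inhibitor REDD1 and a hypoxia-induced gene, stood at 154 ± 4.38 normalized CPM in WT and 56.8 ± 3.13 in KD (SD, n = 3 libraries), a change of -1.44 on the log2 scale (adjusted p = 1.86e-24, edgeR). Pdcd4, which inhibits the eIF4A helicase, fell from 10.5 ± 0.716 to 3.92 ± 0.457 (log2 fold change -1.42), and Mlst8, a subunit of mTORC1, rose from 10.6 ± 0.361 to 25.7 ± 0.897 (log2 fold change 1.28). The 12 other genes of the list were named after their values were seen. The mTORC1 genes Mtor, Rptor and Rheb rose by 0.64, 0.64 and 0.56 on the log2 scale, Larp1, which binds mRNAs of the translation machinery, by 0.77, and Akt1s1, an inhibitor within mTORC1, by 0.40. Tsc1 and Tsc2, which together restrain Rheb, fell by 0.42 and 0.80 and the S6 kinase genes Rps6kb1 and Rps6kb2 by 0.41 and 0.26 on the log2 scale. Both MNK genes, whose kinases phosphorylate eIF4E, fell, Mknk2 by 0.57 and Mknk1 by 0.32, and the mTORC1 inhibitor gene Sesn2 had a log2 fold change of -0.07 (adjusted p = 0.43, edgeR).

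Among 5 genes of poly(A)-binding proteins and their partners, 2 were higher and 2 lower. Paip2, which displaces the poly(A)-binding protein from mRNA, fell from 138 ± 1.89 to 64.5 ± 1.57 normalized CPM (log2 fold change -1.10, adjusted p = 7.66e-22, edgeR), and Pabpc4 rose by 0.35 on the log2 scale. Pabpc1, the main poly(A)-binding protein gene, named after its values were seen, fell by 0.28 on the log2 scale (5068 ± 78.9 to 4170.0 ± 25.3 normalized CPM, SD, n = 3 each). Of 6 genes for scanning helicases, re-initiation and recycling, 5 were higher and 1 lower. Dhx29, a helicase for structured leaders, rose most, from 35.4 ± 1.18 to 70.2 ± 2.62 (log2 fold change 0.99), followed by Abce1, which splits ribosomes after termination (0.60).

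The next steps of translation gave a different balance. Of 9 genes tested on a list of elongation and termination factors and their relatives, 4 were higher and 5 lower. The 5 that fell were Eef1g (log2 fold change -0.64), Eef1a1 (-0.51), Eef1b2 (-0.46), Eef2 (-0.21) and Eef1d (-0.12). The 4 that rose were Eef1e1 (0.62), Gspt1 (0.60), Eef2k (0.52) and Etf1 (0.50). Of these, Gspt1 and Etf1 encode termination factors, while Eef1e1 and the kinase gene Eef2k do not encode elongation factors. Of 79 ribosomal protein genes 1 rose and 73 fell (median log2 fold change -0.52), and of 20 cytosolic aminoacyl-tRNA synthetase genes 16 rose and 2 fell (median 0.34), beside 28 and 12 of the 49 initiation factors (median 0.15). Differences between these lists were not tested.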

How the data were processed

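Total RNA of 6 libraries was sequenced. The labels name TRIzol and a SMARTER kit, the paper an RNeasy and an NEBNext kit. The authors trimmed adapters, mapped reads with HISAT2 to hg19 (their processing notes name hg38, featureCounts and DESeq2) and deposited whole-number read counts of 22989 genes, without normalization. Annotation and strand use are not given in the sources used here. Columns were assigned by the samples' descriptions, with 0 columns unused.

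Testing used edgeR 4.0.16 under R 4.3.3: filterByExpr (minimum count 10, total 15), TMM scaling, the quasi-likelihood test on group only, and Benjamini-Hochberg adjustment over 13497 genes. The thresholds, adjusted p under 0.05 and fold change over 2, follow the study. Standard errors are the log2 fold change divided by the root of F. Ratios used counts plus 0.5. The code was tested on simulated data. DESeq2 1.42.0 was an alternative.

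Members and lists were chosen with earlier results of these data known. The ribosomal protein and synthetase lists were added last. Named are members past both thresholds, the 3 largest changes per role and 10 fixed genes (Eif4e, Eif4a1, Eif4a2, Eif4g1, Eif4ebp1, Eif2s1, Eif5a, Eif6, Eif1, Eif5), and of related lists the genes past both thresholds and the 2 largest changes. Other members and related genes were named with a log2 fold change or interval after their values were seen, so that nearly all tested members appear. Libraries held 36979221 to 38799331 counts.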

Additional observations from a re-analysis of the deposited data

How the results depend on the processing

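Of the 49 members tested, 40 kept their side of the adjusted p threshold under the 13 alternative fits (scaling, filters, DESeq2, the replicate block and each library left out), and 9 did not. The sign changed for 4 members, Eif2b5, Eif3e, Eif4a3 and Eif4b, none of which passed the threshold. The numbers higher and lower ranged over 26 to 28 and 9 to 14. With each library left out in turn, 27 to 28 members were higher, 9 to 13 lower, 1 to 3 higher and 0 lower past a fold change of 2 as well (3 without WT replicate 2, with Eif2b3 and Eif5a2 added), and the median log2 fold change was 0.13 to 0.17. Requiring 10 counts in every sample left 0 members past both thresholds, because Eif4a3l1 was not tested. Upper quartile scaling lowered the median to 0.11 and library totals to 0.13. The median of all genes moved down as well, from -0.01 to -0.05 and -0.03. With the canonical factors only, 25 of 40 were higher and 8 lower.

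The replicate numbers are only numbers: deviations of same-numbered WT and KD libraries correlated by -0.00668, -0.0124 and 0.0172. With the replicate block, 28 members were higher and 13 lower, the added one being Eif3g (adjusted p = 0.0438, edgeR). With a library left out, the log2 ratio changes were 0.56 to 0.59 (Eif4a2 to Eif4a1), -0.19 to -0.14 (Eif4g3 to Eif4g1), -0.28 to -0.18 (Eif4ebp1 to Eif4e), 1.14 to 1.24 (Eif5a2 to Eif5a), 1.67 to 2.43 (Eif4e3 to Eif4e) and -0.0063 to 0.10 (Eif4ebp2 to Eif4ebp1, turned without KD replicate 2). The Eif4e3 value rests on 7 counts in all and fell from 2.05 to 0.23 with 5 counts added in place of 0.5.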
